A study of Arabidopsis thaliana with 12 samples.

Results

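CLE41 (AT3G24770), CLE42 (AT2G34925) and CLE44 (AT4G13195) are the Arabidopsis genes that encode peptides of the TDIF type. Their transcripts were followed in roots of lines built to switch on a Dof transcription factor gene, with and without the inducer. The members were the entries of the expression table mapped to these 3 symbols. Each had 1 entry, so 3 of 3 genes were measured, among 16548 genes tested. Roots came from 3 lines that carry a Dof gene under ER8, a vector that an estrogen switches on. The ER8Dof1.1 line has the genotype label ER8Dof1.1/S32/Col, the ER8Dof2.2 line ER8Dof2.2/SUC2p::GFP-GUS and the ER8PEAR2 line ER8PEAR2/SUC2p::GFP-GUS, so that the last pair shares a reporter driven by the promoter of SUC2, a sucrose transporter gene of phloem companion cells. Plants aged 68 h were moved to plates without estriol (mock) or with 10 µM estriol, an estrogen, for 16 h, and entire roots were taken, with 2 biological replicates in each of the 6 groups and 1 one-colour array per sample. The labels do not say whether a line is 1 transformant or several. Roots lacking such a transgene were not among the samples used here, so the effect of an induced Dof gene and that of estriol cannot be told apart.

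TDIF is a short secreted peptide cut from the CLE41 and CLE44 precursors, and CLE42 gives a nearly identical peptide. In the vascular bundle it is known as a signal from phloem to the neighbouring procambium, where the receptor kinase PXY (also called TDR) binds it. The signal promotes procambial cell division through the transcription factor WOX4 and holds back xylem differentiation through GSK3-type kinases such as BIN2.

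The series is about Dof genes active mainly in phloem, and the comparison asks whether genes for a phloem-derived signal change when such a Dof gene is induced. The induced transcripts were checked first. The files do not name the transgenes, and general knowledge places Dof2.2 at AT2G28810 and PEAR2 at AT5G02460. AT2G28810 read 5.39 and 5.91 on the mock arrays and 8.36 and 9.01 on the estriol arrays of the ER8Dof2.2 roots, on the log2 signal scale. AT5G02460 read 7.92 and 7.81, then 12.25 and 12.24, in ER8PEAR2 roots. Both were higher on each estriol array than on each mock array, as the labels have it. That pattern held for 37.7% of all genes in the ER8Dof2.2 line and 33.6% in the ER8PEAR2 line, so by itself it is common. No entry was used for the Dof1.1 transcript, which was not analysed here. In its own line AT2G28810 rose by 3.04 (SE 0.27; limma, adjusted p = 1.81e-05). It also rose in the other lines, by 2.99 (SE 0.27) in ER8Dof1.1 and 2.04 (SE 0.27) in ER8PEAR2 roots (limma, adjusted p = 1.67e-05 and 0.000486). The ER8Dof1.1 response minus the ER8Dof2.2 response was -0.05 (SE 0.39; limma, adjusted p = 0.992). The rise was thus not limited to its own line, and does not by itself show that the transgene was induced. AT5G02460 rose in the ER8Dof1.1 roots as well, by 1.02 (SE 0.20; limma, adjusted p = 0.00293), and changed by 0.13 in the ER8Dof2.2 roots, which did not pass (adjusted p = 0.698). Over the entire table, 2 arrays of a group had a correlation of 0.988 to 0.995. Median signals ranged from 5.94 to 6.16 in the ER8Dof1.1 line, 5.41 to 5.58 in the ER8Dof2.2 line and 6.48 to 6.57 in the ER8PEAR2 line, and the lines may have been normalized separately. Levels are therefore compared between lines only as a description, after quantile normalization of all 12 arrays, and the number of arrays limits the precision. A level is called dim where the group mean lies below the lower quartile of the entries in its arrays, at 2.95 to 4.04 over the 6 groups. No CLE41, CLE42 or CLE44 level was dim.

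All 3 genes rose with estriol in all 3 lines. CLE41 had the largest rise of the 3 in the ER8Dof2.2 and ER8PEAR2 lines, at 9.22-fold and 9.58-fold, and CLE42 in the ER8Dof1.1 line, at 7.16-fold. CLE44 had the smallest rise of all, 1.61-fold in the ER8Dof1.1 line, against 3.73-fold and 4.91-fold in the ER8Dof2.2 and ER8PEAR2 lines. Genes that rose made up 17.8% of all genes tested in the ER8Dof1.1 line, 14.8% in the ER8Dof2.2 line and 8.33% in the ER8PEAR2 line, and 6.06% (1002 genes) rose in all 3 lines.

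CLE41, 1 of the TDIF precursors, read 8.22 and 8.38 on the mock arrays of the ER8Dof1.1 line and 10.8 and 10.91 on its estriol arrays. It read 7 and 7.65, then 10.25 and 10.81, in the ER8Dof2.2 line. In ER8PEAR2 roots it read 8.56 and 8.49 in mock and 11.84 and 11.73 with estriol. Every estriol array lay above every mock array of its line, and the ER8Dof2.2 line had the widest gaps between replicates, 0.65 in mock and 0.56 in estriol. The log2 change was 2.56 (SE 0.23, 95% interval 2.04 to 3.07) in the ER8Dof1.1 line, with adjusted p = 1.61e-05 by limma. In the ER8Dof2.2 line it was 3.21 (SE 0.23, 2.69 to 3.72; adjusted p = 4.29e-06), and in the ER8PEAR2 line 3.26 (SE 0.23, 2.74 to 3.78; adjusted p = 9.15e-06). Ranked by log2 change, CLE41 stood at place 249 of 16548 in the ER8Dof1.1 line, 95 in the ER8Dof2.2 line and 90 in the ER8PEAR2 line. The median change of all genes was 0.11, 0.105 and 0.03 in the same order.

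CLE42 encodes the peptide that is nearly identical to TDIF. It read 7.2 and 7.94 on mock arrays and 10.28 and 10.54 on estriol arrays of the ER8Dof1.1 line. The values were 7.75 and 7.31, then 9.15 and 9.67, in the ER8Dof2.2 line. In ER8PEAR2 roots it read 7.74 and 7.99 in mock and 9.91 and 9.86 with estriol. Mock and estriol arrays did not overlap in any line, although the mock arrays of the ER8Dof1.1 line were 0.74 apart. CLE42 rose by 2.84 (SE 0.27, 95% interval 2.24 to 3.44) in the ER8Dof1.1 line (limma, adjusted p = 2.05e-05). It rose by 1.88 (SE 0.27, 1.28 to 2.48; adjusted p = 0.000436) in the ER8Dof2.2 line and by 2.02 (SE 0.27, 1.42 to 2.62; adjusted p = 0.000461) in the ER8PEAR2 line. Its place by log2 change was 200, 306 and 251 in the ER8Dof1.1, ER8Dof2.2 and ER8PEAR2 lines.

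CLE44, the other TDIF precursor, read 6.61 and 6.82 on mock arrays and 7.37 and 7.44 on estriol arrays of the ER8Dof1.1 line. It read 6.44 and 6.6, then 8.15 and 8.69, in the ER8Dof2.2 line. In ER8PEAR2 roots it read 6.74 and 6.47 in mock and 8.97 and 8.83 with estriol. Again no mock and estriol arrays of a line overlapped, but in the ER8Dof1.1 line the gap from the higher mock to the lower estriol array was small. CLE44 rose by 0.69 (SE 0.19, 95% interval 0.26 to 1.12) in the ER8Dof1.1 line (limma, adjusted p = 0.0194). It rose by 1.9 (SE 0.19, 1.47 to 2.33; adjusted p = 4.21e-05) in the ER8Dof2.2 line and 2.29 (SE 0.19, 1.86 to 2.73; adjusted p = 2.5e-05) in the ER8PEAR2 line. The place by log2 change was 2034 in the ER8Dof1.1 line, against 299 and 203 in the others. The rise in the ER8Dof1.1 line lost its call without mock replicate 1 of that line (0.58, adjusted p = 0.107), estriol replicate 1 (0.72, adjusted p = 0.0603) or estriol replicate 2 (0.65, adjusted p = 0.0864). Both estriol arrays lay above both mock arrays in 37.4% of all genes in the ER8Dof1.1 line, 37.7% in the ER8Dof2.2 line and 33.6% in the ER8PEAR2 line, so the absence of overlap is by itself common here. In bulk roots, more cells of a type and more RNA per cell cannot be told apart.

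**Figure D1:**
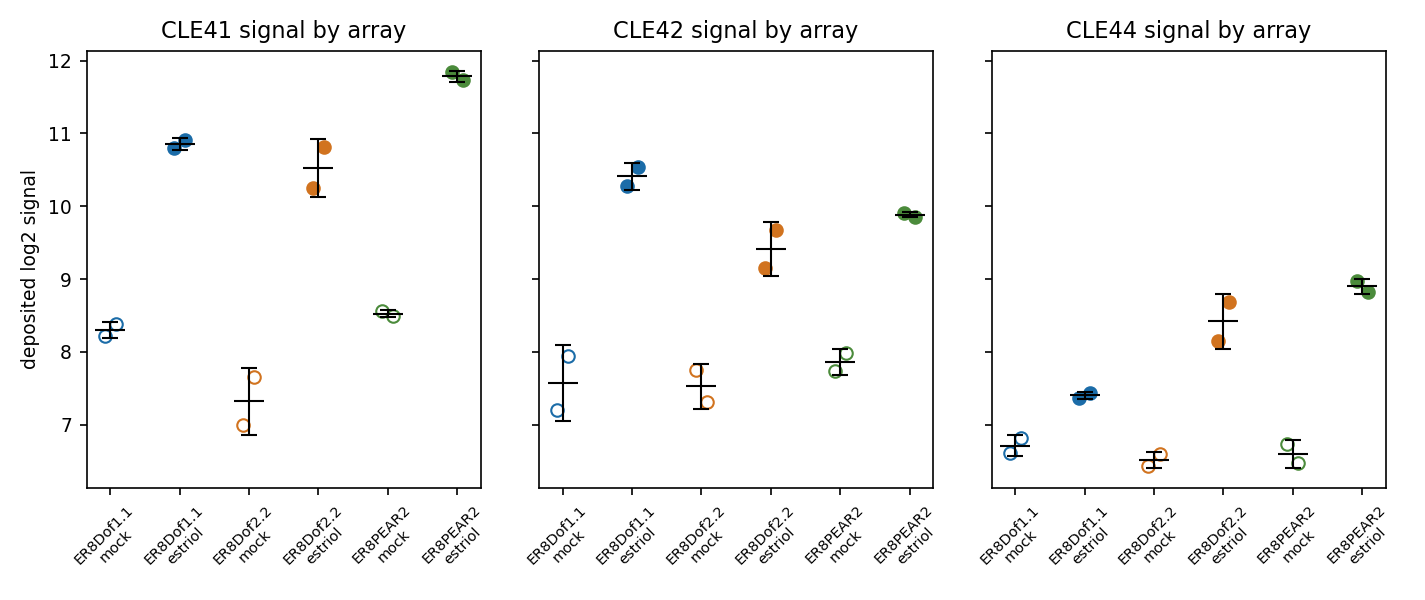
Deposited log2 signal (vertical axis) of CLE41, CLE42 and CLE44 on each array, by line and treatment. Open points are mock arrays, filled points estriol arrays, and bars the group mean with the SD of 2 arrays. Estriol arrays lie above the mock arrays of their line in every panel, with the smallest step for CLE44 in the ER8Dof1.1 line, from 6.61 and 6.82 to 7.37 and 7.44.

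**Figure D2:**
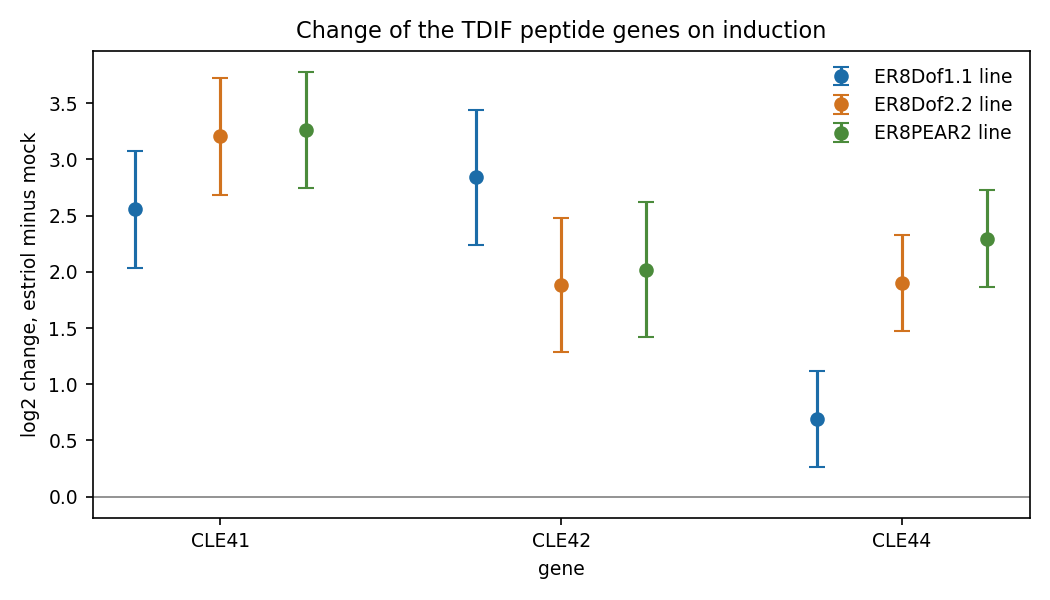
Log2 change on estriol (vertical axis) of each gene in the ER8Dof1.1, ER8Dof2.2 and ER8PEAR2 lines, with 95% intervals from the limma model. CLE44 in the ER8Dof1.1 line, at 0.69, lies below all other changes, which run from 1.88 to 3.26.

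Whether a response differed between lines was tested as the difference of the changes. Each line enters 2 of the 3 differences, so these are not independent. The ER8Dof1.1 line differs from the others in genotype background as well as in Dof gene, and its Dof1.1 transcript was not analysed. Dof gene, background and strength of induction therefore cannot be told apart in differences that involve this line. For CLE44 the change in the ER8Dof1.1 line was smaller than that in the ER8PEAR2 line by 1.61 on the log2 scale (a difference of -1.61, SE 0.27, 95% interval -2.21 to -1), with adjusted p = 0.0143 by limma. This was the only difference of the 9 that passed the threshold with the model as fitted. Such differences passed in 2.91% of all genes, and in this direction in 1.67% (277 genes). Against the ER8Dof2.2 line the CLE44 response in the ER8Dof1.1 line was also lower, at -1.21 (SE 0.27, -1.82 to -0.6), but this did not pass (adjusted p = 0.069), where 1.53% of all genes passed. The ER8Dof2.2 and ER8PEAR2 responses of CLE44 differed by -0.4 (SE 0.27, -1 to 0.21; adjusted p = 0.697), and differences of that pair passed in 1.66% of all genes. A joint test over the 3 lines gave adjusted p = 0.0207 for CLE44, with 3.32% of all genes past the threshold. The difference between the ER8Dof1.1 and ER8PEAR2 lines missed the threshold without ER8Dof1.1 mock replicate 2 (-1.5, adjusted p = 0.055), ER8PEAR2 mock replicate 2 (-1.47, adjusted p = 0.0686) or ER8PEAR2 estriol replicate 1 (-1.53, adjusted p = 0.0577). That between the ER8Dof1.1 and ER8Dof2.2 lines passed without ER8Dof2.2 estriol replicate 1 (-1.48, adjusted p = 0.0245).

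For CLE42 the response was numerically largest in the ER8Dof1.1 line, the line where that of CLE44 was smallest. It exceeded that of the ER8Dof2.2 line by 0.96 (SE 0.38, 95% interval 0.11 to 1.81) and that of the ER8PEAR2 line by 0.82 (SE 0.38, -0.025 to 1.67), and neither passed after adjustment (limma, adjusted p = 0.365 and 0.339). Without ER8Dof1.1 mock replicate 1 these values were 0.59 and 0.45, and with each array left out in turn they ran from 0.59 to 1.33 and from 0.45 to 1.19. The ER8Dof2.2 and ER8PEAR2 responses of CLE42 differed by -0.14 (SE 0.38, -0.99 to 0.71; adjusted p = 0.953). For CLE41 the ER8Dof1.1 response had differences of -0.65 (SE 0.33, -1.38 to 0.083) against the ER8Dof2.2 line and -0.7 (SE 0.33, -1.44 to 0.028) against the ER8PEAR2 line, neither of which passed (adjusted p = 0.553 and 0.345). The first of these was -0.33 without ER8Dof2.2 mock replicate 1 and -0.37 without ER8Dof2.2 estriol replicate 2, in a range down to -0.98. The ER8Dof2.2 and ER8PEAR2 responses of CLE41 differed by -0.055 (SE 0.33, -0.79 to 0.68; adjusted p = 0.976). With arrays left out, the differences between the ER8Dof2.2 and ER8PEAR2 lines ran from -0.38 to 0.27 for CLE41 and -0.4 to 0.12 for CLE42, so neither had a settled direction. The joint test over the 3 lines gave adjusted p = 0.455 for CLE41 and 0.352 for CLE42. Against the ER8Dof2.2 line the CLE41 interval reached -1.38, beyond the -1.21 found for CLE44. Against the ER8PEAR2 line the CLE41 interval reached -1.44, short of the -1.61 found for CLE44. An equal CLE41 response in the lines was not shown. In the ER8Dof1.1 line the CLE42 change exceeded that of CLE44 by 2.15 on the log2 scale, whereas in the ER8Dof2.2 line they differed by -0.02 and in the ER8PEAR2 line by -0.28. Whether the genes differ from each other in their order over the lines was not tested.

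**Figure D3:**
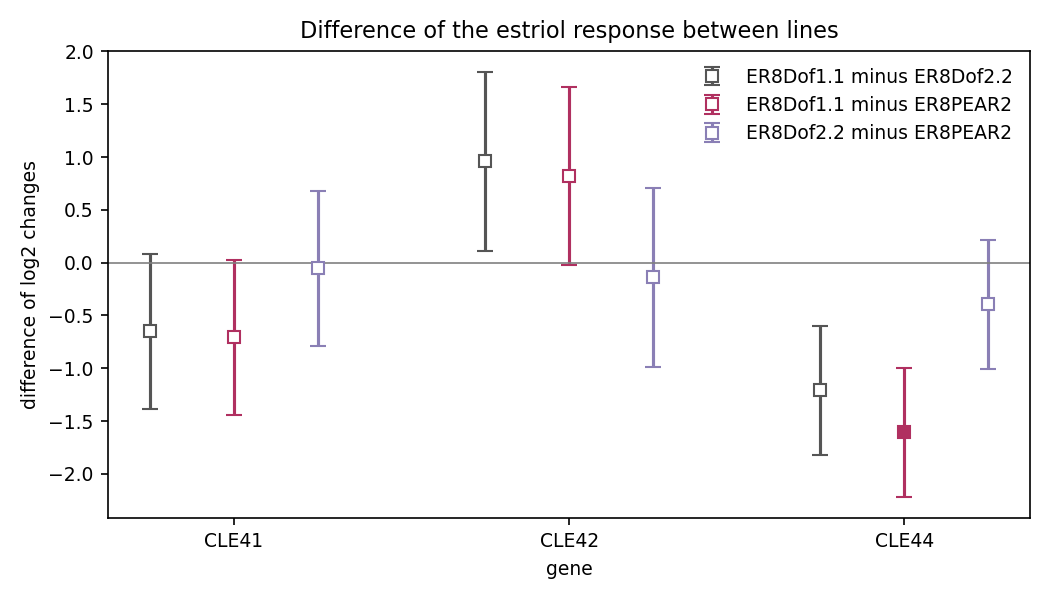
Difference of the log2 changes between each pair of lines (vertical axis) for CLE41, CLE42 and CLE44, with 95% intervals that are not adjusted for the number of genes. The filled square is the difference past the adjusted threshold, that of CLE44 between the ER8Dof1.1 and ER8PEAR2 lines at -1.61, and open squares did not pass.

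The replicate spread of the 3 genes was not even. On the estriol arrays of the ER8Dof2.2 line, replicate 2 lay above replicate 1 by 0.56 for CLE41, 0.52 for CLE42 and 0.54 for CLE44. AT2G28810, the Dof2.2 locus, differed between the same arrays by 0.65 in the same direction. On the mock arrays of that line, replicate 2 minus replicate 1 was 0.65 for CLE41, -0.44 for CLE42, 0.16 for CLE44 and 0.52 for AT2G28810, so CLE42 went the other way there. On the estriol arrays of the ER8PEAR2 line the gaps were 0.11, 0.05 and 0.14 for CLE41, CLE42 and CLE44, and AT5G02460, the PEAR2 locus, differed by 0.01. With 2 arrays a group, a link between the level of an induced Dof transcript and these genes was not tested.

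Levels between lines were compared on the scale after quantile normalization. For CLE41 the estriol group of the ER8PEAR2 line was highest, at 11.55 ± 0.10 (SD, n = 2), with the ER8Dof2.2 line at 10.88 ± 0.36 and the ER8Dof1.1 line at 10.84 ± 0.078, which did not differ beyond their spread. Its mock groups followed, at 8.29 ± 0.11 in the ER8Dof1.1 line, 8.13 ± 0.043 in the ER8PEAR2 line and 7.79 ± 0.45 in the ER8Dof2.2 line, and the arrays of the last pair overlapped. For CLE42 the order was ER8Dof1.1 estriol at 10.36 ± 0.19, ER8Dof2.2 estriol at 9.82 ± 0.34 and ER8PEAR2 estriol at 9.5 ± 0.048, and the last pair lay within the SD of the ER8Dof2.2 line. Its mock groups stood at 7.99 ± 0.32 in the ER8Dof2.2 line, 7.53 ± 0.52 in the ER8Dof1.1 line and 7.43 ± 0.2 in the ER8PEAR2 line, none of which stood apart from the next by more than its spread. For CLE44 the estriol groups of the ER8Dof2.2 line, at 8.83 ± 0.36, and the ER8PEAR2 line, at 8.49 ± 0.11, did not differ beyond their spread, and the ER8Dof1.1 line stood lower at 7.39 ± 0.044. The CLE44 mock groups were 6.99 ± 0.092 in the ER8Dof2.2 line, 6.63 ± 0.12 in the ER8Dof1.1 line and 6.07 ± 0.19 in the ER8PEAR2 line. In the deposited values the ER8PEAR2 line had the highest CLE44 estriol level, 8.9 ± 0.099 against 8.42 ± 0.38 in the ER8Dof2.2 line, and the highest CLE42 mock level, 7.87 ± 0.18. CLE44 mock was lowest in the ER8Dof2.2 line in the deposited values, at 6.52 ± 0.11, and highest there after quantile normalization. The order of the lines differed between the scalings in all 6 sets, for each gene in mock and in estriol. The highest estriol levels that held on both scales were those of CLE41 in the ER8PEAR2 line and CLE42 in the ER8Dof1.1 line. The lowest levels that held were CLE44 estriol in the ER8Dof1.1 line and CLE41 mock in the ER8Dof2.2 line. For CLE42 mock the ER8Dof1.1 line lay between the others on both scales, but apart from each of them by less than its own SD.

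The place of each gene among the entries of its own array gives the same values without a scale shared between lines. Group means for CLE41 went from percentile 77.4 to 97.1 in the ER8Dof1.1 line, 71.1 to 97.1 in the ER8Dof2.2 line and 75.4 to 98.8 in the ER8PEAR2 line. CLE42 went from 67.9 to 95.2, 73.7 to 92 and 66.5 to 89.8 in the same order. CLE44 went from 56.8 to 66.1 in the ER8Dof1.1 line, 61 to 83.4 in the ER8Dof2.2 line and 50.5 to 79.8 in the ER8PEAR2 line. The CLE44 entry thus began lower in the ER8PEAR2 line than in the ER8Dof1.1 line and ended higher.

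**Figure D4:**
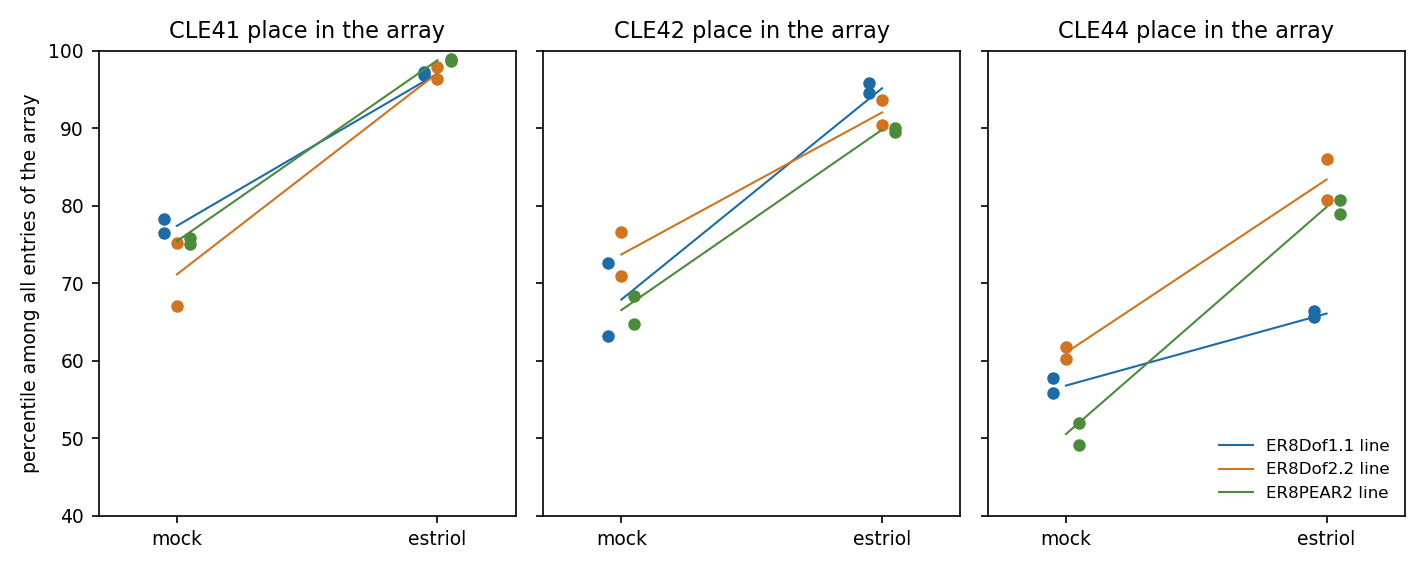
Percentile of the CLE41, CLE42 and CLE44 entries among all entries of the same array (vertical axis, which does not start at 0), in mock and estriol arrays. Points are arrays and lines join group means; for CLE44 the ER8Dof1.1 line ends at 66.1, below 83.4 and 79.8 in the other lines.

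Other genes of the TDIF pathway came from a list of 44 receptors, kinases, transcription factors and cell division genes, of which 5 had an entry with 1 gene name. PXY, WOX4 and BIN2 were not among these 5 and were not analysed here. In each line 3 of the 5 rose, 1 fell and 1 did not pass. Of all genes, 17.8%, 14.8% and 8.33% rose and 16.2%, 13.6% and 10.4% fell in the ER8Dof1.1, ER8Dof2.2 and ER8PEAR2 lines. The median change of the 5 was 0.64, 0.81 and 0.58 in the same order, beside the medians of all genes above. After quantile normalization 4 of the 5 rose in the ER8Dof1.1 and ER8Dof2.2 lines, beside 20.2% and 17.4% of all genes.

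Among receptor kinases, PXL2 (AT4G28650), annotated as a relative of PXY, was the gene that fell. It read 7.82 and 7.76 on mock arrays and 6.22 and 6.11 on estriol arrays of the ER8Dof1.1 line, and 7.52 and 7.43, then 5.96 and 5.93, in the ER8Dof2.2 line. In ER8PEAR2 roots it read 7.96 and 8.06 in mock and 6.96 and 7.19 with estriol. Every estriol array lay below every mock array of its line, the reverse of the 3 CLE genes. The share of all genes with this pattern was not counted, so the absence of overlap is given as description only. The changes were -1.62, -1.53 and -0.94 (SE 0.14), with adjusted p = 9.66e-06, 1.73e-05 and 0.00085 by limma. PXL1 (AT1G08590), the other annotated PXY relative, had changes of 0.34, 0.41 and 0.21 (SE 0.15) that did not pass (limma, adjusted p = 0.105, 0.0632 and 0.384). MOL1, a receptor-like kinase known to restrain cambium activity, rose by 1.75, 1.56 and 2.02 (SE 0.17).

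Among transcription factors, PHV, an HD-ZIP III factor of vascular and organ patterning, rose by 2.02 in the ER8Dof1.1 line, 1.24 in the ER8Dof2.2 line and 0.99 in the ER8PEAR2 line (SE 0.16). The PHV response was larger in the ER8Dof1.1 than in the ER8PEAR2 line by 1.03 (SE 0.23; limma, adjusted p = 0.0414), opposite in direction to the difference found for CLE44. LHW, a bHLH factor of vascular cell division, rose by 0.64, 0.81 and 0.58 (SE 0.16). No other difference between lines passed among these 5 genes, with adjusted p from 0.1 for PXL2 between the ER8Dof1.1 and ER8PEAR2 lines upward.

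Other members of the CLE family have peptides that act in many tissues. Of 28 other symbols 14 had an entry, and 1, 3 and 1 of these rose and 2, 2 and 2 fell in the ER8Dof1.1, ER8Dof2.2 and ER8PEAR2 lines. Rises made up 17.8%, 14.8% and 8.33% of all genes, and falls 16.2%, 13.6% and 10.4%. The median change of the 14 was -0.053, 0.095 and 0.045, beside 0.11, 0.105 and 0.03 for all genes. Among the 14, CLE18, CLE21, CLE22, CLE43 and CLV3 were dim in all 6 groups, and CLE27, CLE40 and CLE45 in most of them. The medians and the members without a call thus say little on whether those genes respond. CLE25 had the highest change in every line, at 2.42, 2.54 and 2.35, and CLE14 the lowest in every line, at -4.07, -4.02 and -1.8.

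Markers of other root tissues also moved. Of 10 listed phloem markers, OPS, 1 of 6 for sieve elements, and SWEET11 had an entry. SUC2 had none with 1 gene name, so no marker particular to companion cells was analysed here. OPS, a protein of developing sieve elements, rose by 0.91, 1.29 and 1.21 (SE 0.15) in the ER8Dof1.1, ER8Dof2.2 and ER8PEAR2 lines (limma, adjusted p = 0.00103, 0.000118 and 0.000339). SWEET11, which exports sucrose during phloem loading, rose in the ER8PEAR2 line by 4.01 (SE 0.55; limma, adjusted p = 0.000583), with 1.48 and 0.29 in the ER8Dof1.1 and ER8Dof2.2 lines (adjusted p = 0.064 and 0.752). It read 6.57 and 8.68 on the mock arrays and 7.42 and 8.42 on the estriol arrays of the ER8Dof2.2 line. The change in that line is therefore uncertain, and this spread also widens the SE that the lines share. Of 4 root hair markers 2 had an entry, the expansins EXPA7 and EXPA18, with mock group means of 9.17 to 9.65 and 10.53 to 11.05. All of these means were far above the lower quartile of their arrays. Both genes fell in every line, EXPA7 with changes of -3.48, -4.38 and -1.94, and EXPA18 with changes of -3.98 in the ER8Dof1.1 line, -5.17 in the ER8Dof2.2 line and -1.88 in the ER8PEAR2 line. With estriol their group means were 4.88 to 7.71 for EXPA7 and 5.36 to 9.17 for EXPA18. The part of these markers in the changes of the CLE genes was not tested. Listed markers of xylem, endodermis, green tissue and root transport had no entry with 1 gene name and were not analysed here.

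The protein-coding genes on either side of each CLE gene in the TAIR10.1 annotation were looked at after the values had been seen. Of 6 such neighbours 5 had an entry. AT3G24760, beside CLE41, had changes of -0.13, -0.14 and 0.005 that did not pass, while AT3G24780 on its other side had 0.59, 0.9 and 1.05, of which the last pair passed (limma, adjusted p = 0.0258 and 0.0181). AT2G34930, beside CLE42, fell in the ER8Dof1.1 and ER8Dof2.2 lines at -0.89 and -0.97 (adjusted p = 0.049 and 0.0398), with -0.72 in the ER8PEAR2 line (adjusted p = 0.152). AT4G13200, beside CLE44, rose by 1.34, 0.77 and 0.66 (SE 0.18), in an order over the lines opposite to that of CLE44.

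AT4G13190, on the other side of CLE44, is the 1 neighbour whose annotated span overlaps that of the CLE gene. It read 4.4 and 4.68 on mock arrays and 4.38 and 4.66 on estriol arrays of the ER8Dof1.1 line, and 4.05 and 3.85, then 4.52 and 5.03, in the ER8Dof2.2 line. In ER8PEAR2 roots it read 4.38 and 4.39 in mock and 6.05 and 6.08 with estriol. The treatments overlapped in the ER8Dof1.1 line and not in the others. In having both estriol arrays above both mock arrays, AT4G13190 was like 37.7% of all genes in the ER8Dof2.2 line and 33.6% in the ER8PEAR2 line. Its changes were -0.02, 0.82 and 1.68 (SE 0.19; limma, adjusted p = 0.952, 0.00922 and 0.000191), and its response in the ER8Dof1.1 line was lower than in the ER8PEAR2 line, with a difference of -1.7 (SE 0.27; adjusted p = 0.0111). The order of lines was thus that of CLE44. Positions and strands of the probes were not given in the sources used here, so how far the signals of CLE44 and AT4G13190 are separate is uncertain.

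**Figure D5:**
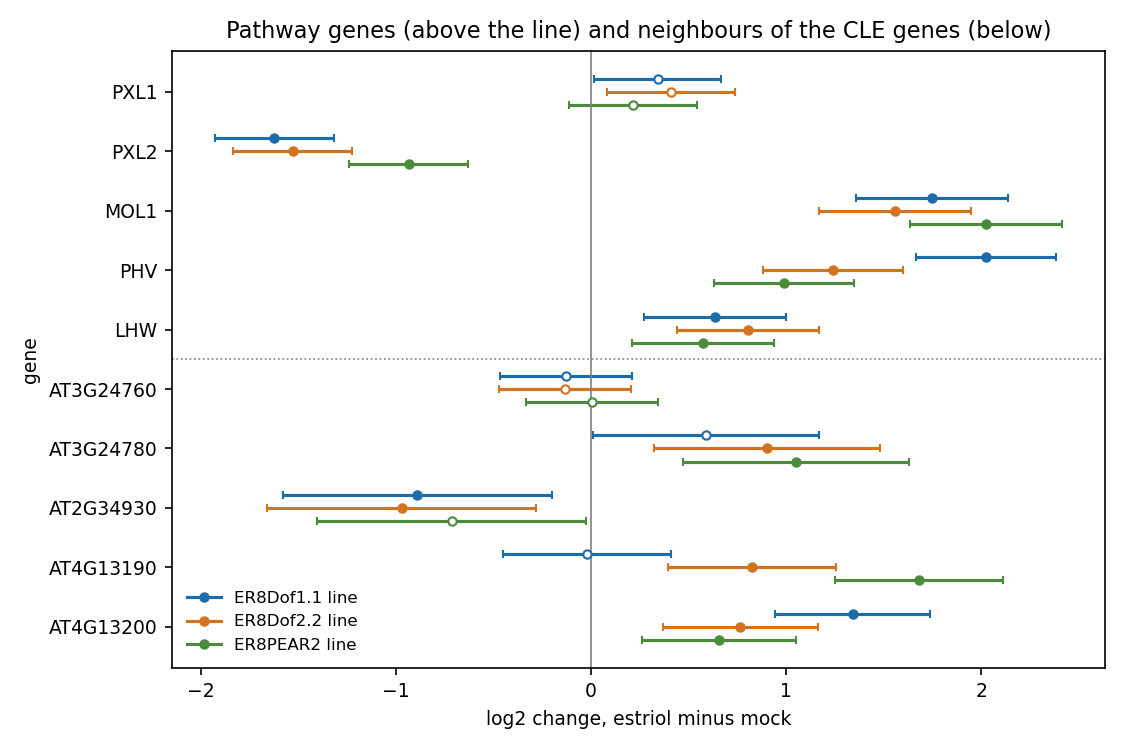
Log2 change on estriol (horizontal axis) in each line, with 95% intervals, for 5 pathway genes and 5 neighbours of the CLE genes. Filled points passed the adjusted threshold; PXL2 lies to the left in every line, and AT4G13190 spreads from -0.02 in the ER8Dof1.1 line to 1.68 in the ER8PEAR2 line.

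Genes with a profile most like each CLE gene were found by the root mean square difference of log2 values, centred on the mean of each line, over the 12 arrays. Since this measure looks for the same sizes of change, the order of lines in these genes is part of how they were chosen. The 5 nearest to CLE41 were AT4G19370 at 0.14, AT3G11930 at 0.22, AT1G73850 at 0.23, AT5G44350 at 0.23 and AT5G08350 at 0.23. AT4G19370 had changes of 2.65, 3.34 and 3 in the ER8Dof1.1, ER8Dof2.2 and ER8PEAR2 lines, with the larger rises in the same pair of lines as CLE41. AT3G11930 and AT5G44350 also had their smallest rise in the ER8Dof1.1 line. AT1G73850 was nearly level, at 2.76, 2.79 and 2.79, and AT5G08350 had its smallest rise in the ER8PEAR2 line, at 3.2. The 5 nearest to CLE42 were AT2G30942 at 0.17, AT1G26450 at 0.2, AT4G37080 at 0.21, AT3G44150 at 0.21 and AT4G37095 at 0.23, and all had their largest change in the ER8Dof1.1 line, from 2.31 for AT4G37095 to 3.05 for AT3G44150. The 5 nearest to CLE44 were AT5G47920 at 0.16, AT1G07473 at 0.21, AT2G38970 at 0.22, IAA18 at 0.24 and AT5G09800 at 0.25, and all had their smallest change in the ER8Dof1.1 line. IAA18, a repressor of auxin-responsive transcription, changed by 1.32, 1.99 and 2.08. The CLE genes were not among each other's nearest, with differences of 0.59 between CLE41 and CLE42, 0.72 between CLE41 and CLE44 and 0.66 between CLE42 and CLE44. Pearson's r of the same values was 0.94, 0.95 and 0.83, over 12 arrays that share their treatment steps.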

How the data were processed

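Signals came from 12 one-colour arrays labelled with biotin. The deposited log2 signals were made with RMA, per the submitters' processing notes, with no version, software or summarisation level given in the sources used here. Of 28583 entries, 16722 name 1 gene. Identifiers matched 16574 and names 147 of these to the TAIR10.1 annotation, CLE42 by name. The entry with the highest mean was kept per gene, which left 16548 genes.

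One model of 6 group means was fitted with limma 3.58.1 in R 4.3.3 and empirical Bayes moderation. P-values are two-sided, with Benjamini-Hochberg adjustment over all genes for each contrast, and the threshold was 0.05. Files and labels give no slide or scan batch. The model was tested on simulated data.

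CLE41, CLE42 and CLE44 and the lists were chosen with earlier results of these data known. Named by rule were these genes, the 5 most like each, pathway genes past the threshold in at least 1 line, the transgenes, and the highest and lowest other CLE gene. PXL1, the markers, the neighbours and the dim CLE genes were named after their values were seen.

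Pairing of samples by replicate number was checked. Mock and estriol deviations from their group means had correlations of 0.318, 0.168 and 0.127 in the ER8Dof1.1, ER8Dof2.2 and ER8PEAR2 lines, and those of different lines -0.083 to 0.114. Each line has 2 pairs, so the pairing was not taken as shown.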

Additional observations from a re-analysis of the deposited data

Results flagged for a closer look

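The CLE44 response to estriol differed between lines by the test of the difference itself, with a value of -1.61 (SE 0.27) for the ER8Dof1.1 line minus the ER8PEAR2 line (limma, adjusted p = 0.0143). Dof gene, genotype background and strength of induction cannot be told apart between these lines. Both estriol arrays were above both mock arrays in each of these lines, as in 37.4% of all genes in the ER8Dof1.1 line and 33.6% in the ER8PEAR2 line. That absence of overlap does not bear on the difference between the lines. Over the 10 alternatives the adjusted p ran from 0.004 to 0.0248, and over arrays left out in turn from 0.00687 to 0.0686.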

How the results depend on the processing

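All 9 rises kept their direction and call under 10 alternatives of scaling, filter, moderation, weights, samples, block and genes tested, and 8 of them with each of the 12 arrays left out in turn. The exception was CLE44 in the ER8Dof1.1 line, at 0.58 to 0.79 (adjusted p up to 0.107). Of the 9 differences between lines, 7 kept their side of the threshold throughout. For CLE44, the ER8Dof1.1 minus ER8PEAR2 difference ran from -1.74 to -1.47 with arrays left out. The ER8Dof1.1 minus ER8Dof2.2 difference ran from -1.48 to -0.94, and passed under trended robust moderation at -1.21 (adjusted p = 0.0297). With a replicate block within each line the CLE44 values were 0.69 (adjusted p = 0.0103) in the ER8Dof1.1 line and -1.61 (adjusted p = 0.0248) between the ER8Dof1.1 and ER8PEAR2 lines, and neither this block nor that across lines changed a call of the 3 genes. After quantile normalization, 2 of the 14 other CLE genes rose in the ER8Dof1.1 line, beside 20.2% of all genes. On that scale 4 of them fell in the ER8Dof1.1 line and 1 in the ER8PEAR2 line. The shares of all genes that fell on that scale were not counted, so these falls are given as description only. The causes of the changed counts were not tested. Of 36 levels rescaled, 24 moved by more than the SD of their group. No background signal was used here, so how far a level lies above background is not known, but none of the 3 genes was dim in any group.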
